A study of Mus musculus with 8 samples.

Results

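The 10 transcripts described here encode chemoattractant and metabolite G protein-coupled receptors of macrophages: the complement receptors C5ar1 and C3ar1, the formyl peptide receptors Fpr1 and Fpr2, the platelet-activating factor receptor Ptafr, the metabolite receptors Hcar2 and Gpr84, the adenosine receptors Adora2a and Adora2b, and the prostaglandin E2 receptor Ptger4. They were 10 of the 37018 genes and transcripts measured, and each was read from its brightest probe over all arrays. They were chosen by name with earlier results of these arrays known, and the probe of each gene was selected on its brightness. Hcar2 and C5ar1 in addition belong to the genes that the study picked for their difference between resting KO and WT cells on these same arrays, so their resting difference, and anything computed from it between the genotypes, is given as a description with no test. Their changes from unstimulated cells use the same channels and are given with no p-value, though they enter counts of members called. The RNA came from peritoneal cells of C57BL/6 mice labelled as macrophages, obtained by lavage, plated and washed with no sort, and the age of the mice used for the arrays was not given in the sources used here. KO cells carried LysMCre-fur(fl/fl), in which Cre under the lysozyme M promoter deletes the floxed gene of the protease FURIN in myeloid cells, and WT cells came from littermates. Cells of both genotypes were left unstimulated or were stimulated with lipopolysaccharide (LPS, 1 μg/ml), a bacterial cell wall component that activates macrophages through TLR4, for 1, 4 or 24 h. The 8 Agilent 2-colour arrays each carried KO with WT RNA from a shared time, 2 arrays to a time, KO in Cy5 on replicate 1 and in Cy3 on replicate 2. The methods call the replicates biological, and the number of mice behind each was not given in the sources used here, so p-values measure the spread between these samples. Dye orientation and replicate number coincide and cannot be told apart.

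Receptors of this group carry ligand signals across the membrane through heterotrimeric G proteins. C5ar1, C3ar1, Fpr1, Fpr2, Hcar2 and Gpr84 couple mainly to Gi, which lowers cyclic AMP. Its beta-gamma subunits drive phospholipase C and PI3K gamma. The chemoattractant receptors of the group guide phagocytes to complement fragments, bacterial peptides and lipid mediators. Adora2a, Adora2b and Ptger4 couple mainly to Gs and raise cyclic AMP, a signal known to dampen the release of inflammatory cytokines by macrophages.

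The start regions of 8 of the 10 genes, all but Hcar2 and Adora2a, were found in a RefSeq promoter table (GRCm38.p6). The 250 bases before the start, 5′ to 3′ on the gene's strand, are printed for the member that fell at 4 h (C3ar1) and the members with the largest rise in WT cells at 1 h (C5ar1), 4 h (Gpr84) and 24 h (Adora2b). Capitals mark matches to any of 6 motifs searched on both strands. C3ar1 is chr6:122856158-122856407 (minus strand), C5ar1 is chr7:16259339-16259588 (minus strand), Gpr84 is chr15:103310439-103310688 (minus strand) and Adora2b is chr11:62248734-62248983 (plus strand).
C3ar1: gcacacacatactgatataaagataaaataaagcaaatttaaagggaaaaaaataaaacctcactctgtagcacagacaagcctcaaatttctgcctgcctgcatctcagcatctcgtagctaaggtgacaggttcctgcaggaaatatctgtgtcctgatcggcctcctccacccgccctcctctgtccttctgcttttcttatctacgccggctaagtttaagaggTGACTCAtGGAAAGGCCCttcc
C5ar1: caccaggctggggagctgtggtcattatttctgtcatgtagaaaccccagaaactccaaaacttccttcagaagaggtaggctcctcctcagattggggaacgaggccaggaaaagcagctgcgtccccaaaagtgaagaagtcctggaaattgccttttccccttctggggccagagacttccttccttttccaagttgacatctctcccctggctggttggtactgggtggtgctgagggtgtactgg
Gpr84: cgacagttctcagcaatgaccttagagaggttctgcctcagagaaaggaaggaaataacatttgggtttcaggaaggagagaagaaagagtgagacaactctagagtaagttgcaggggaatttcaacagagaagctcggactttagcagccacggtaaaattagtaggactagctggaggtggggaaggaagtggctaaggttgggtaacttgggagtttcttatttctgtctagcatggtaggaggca
Adora2b: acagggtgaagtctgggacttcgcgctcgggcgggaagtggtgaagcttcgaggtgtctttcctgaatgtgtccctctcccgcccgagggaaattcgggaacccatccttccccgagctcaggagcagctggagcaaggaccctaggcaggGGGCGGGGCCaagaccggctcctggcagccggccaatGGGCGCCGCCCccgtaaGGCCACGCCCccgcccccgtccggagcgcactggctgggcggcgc

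The motifs were NF-kappaB (GGG, any 5 bases, then CC), the cyclic AMP response element TGACGTCA and its shorter form TGACG (which lies within the full element), AP-1 TGANTCA, PU.1 GAGGAA and the interferon-stimulated response element (GAAA, any 2 bases, then GAAA). Among the 8 members searched, C3ar1 held an AP-1 match (TGACTCA) 22 bases before its start with an NF-kappaB match beside it, where 6.75% of the 32851 promoters of the table held an AP-1 match. NF-kappaB matches lay in 3 of the 8 members, C3ar1, Adora2b and Ptger4, against 45.8% of all promoters. Fpr2 and Ptafr held a PU.1 match each, a motif found in 23.3% of all promoters. C5ar1, Fpr1 and Gpr84 held none of the letters searched, and no member held the cyclic AMP response element (1.55% of all promoters), its shorter form (17.8%) or the interferon element (2.98%). A match is a description of the letters in this window.

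All 10 probes were above background in all 16 channels and none was saturated. Of the gene spots, 43.8% to 51.3% were well above background in each channel. The macrophage markers Adgre1, Csf1r, Itgam, Mertk and Lyz2 were above background in 16 of 16 channels. Of 9 neutrophil markers measured, S100a9, Cxcr2, Retnlg and Ngp were above background in 0 channels and Ltf in 1, while S100a8, Camp, Mmp9 and Elane were above it in 16. B cell (Cd79b, Ms4a1), T cell (Cd3e, Lck) and mast cell (Cpa3, Cma1) markers were above background in all 16 channels, so the cultures also held RNA of other cells. In bulk RNA, fewer cells of a type and less RNA per cell cannot be told apart. Furin, the deleted gene, had a mean KO/WT log2 ratio of -0.44 over the 4 time points (adjusted p = 0.0220) and of 0.16 at 4 h. The study reports Furin mRNA as nearly absent from macrophages of the KO mice. Whether the array probe reads the deleted part of the gene was not examined. Lyz2, whose locus carries Cre, had a mean ratio of -1.16 (adjusted p = 0.000341). The limit on averages over the times, given below with Fpr2, holds for both genes.

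LPS moved nearly every member. In WT cells, 9 of the 10 receptor transcripts were higher at 1 h than in unstimulated cells, 8 were higher and 1 lower at 4 h, and 5 of the 9 other than C5ar1 were higher and 3 lower at 24 h, with 1 lower, C3ar1, without the unstimulated array of replicate 1 or without the 24 h array of replicate 1. C3ar1 was the member lower at 4 h and was called higher at no time, and it was joined by Ptafr and Ptger4 among the lower members at 24 h. In KO cells 9 were higher after 1 h, 8 were higher and C3ar1 lower after 4 h, and 6 of the other 9 were higher and 3 lower after 24 h. C5ar1 is left out of both 24 h counts, since it is set there against the unstimulated channels on which it was picked. The counts at 1 and 4 h include C5ar1, and those at all 3 times include Hcar2, although these comparisons use the same channels. How these genes were picked therefore bears on their part in every count. Calls were made at an adjusted p of 0.05 in a limma separate-channel fit with Benjamini-Hochberg adjustment over all 36927 genes and transcripts tested. Of all of these, 8.50% were called in WT cells at 1 h (3.38% higher, 5.12% lower), 34.7% at 4 h (15.5% higher, 19.3% lower) and 30.4% at 24 h (13.5% higher, 17.0% lower). In KO cells the percentages were 7.44 (3.09 higher, 4.35 lower), 35.9 (16.2 higher, 19.7 lower) and 28.6 (12.7 higher, 15.9 lower). The members' median change in WT cells on the log2 scale was 1.86, 2.50 and 1.33 at the 3 times, where the median of all genes was -0.02, 0.00 and -0.02. Since the receptors were listed with earlier results known, the counts describe these 10 genes and say nothing of receptors as a class. The comparisons of each time point with unstimulated cells share the unstimulated channels.

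**Figure D1:**
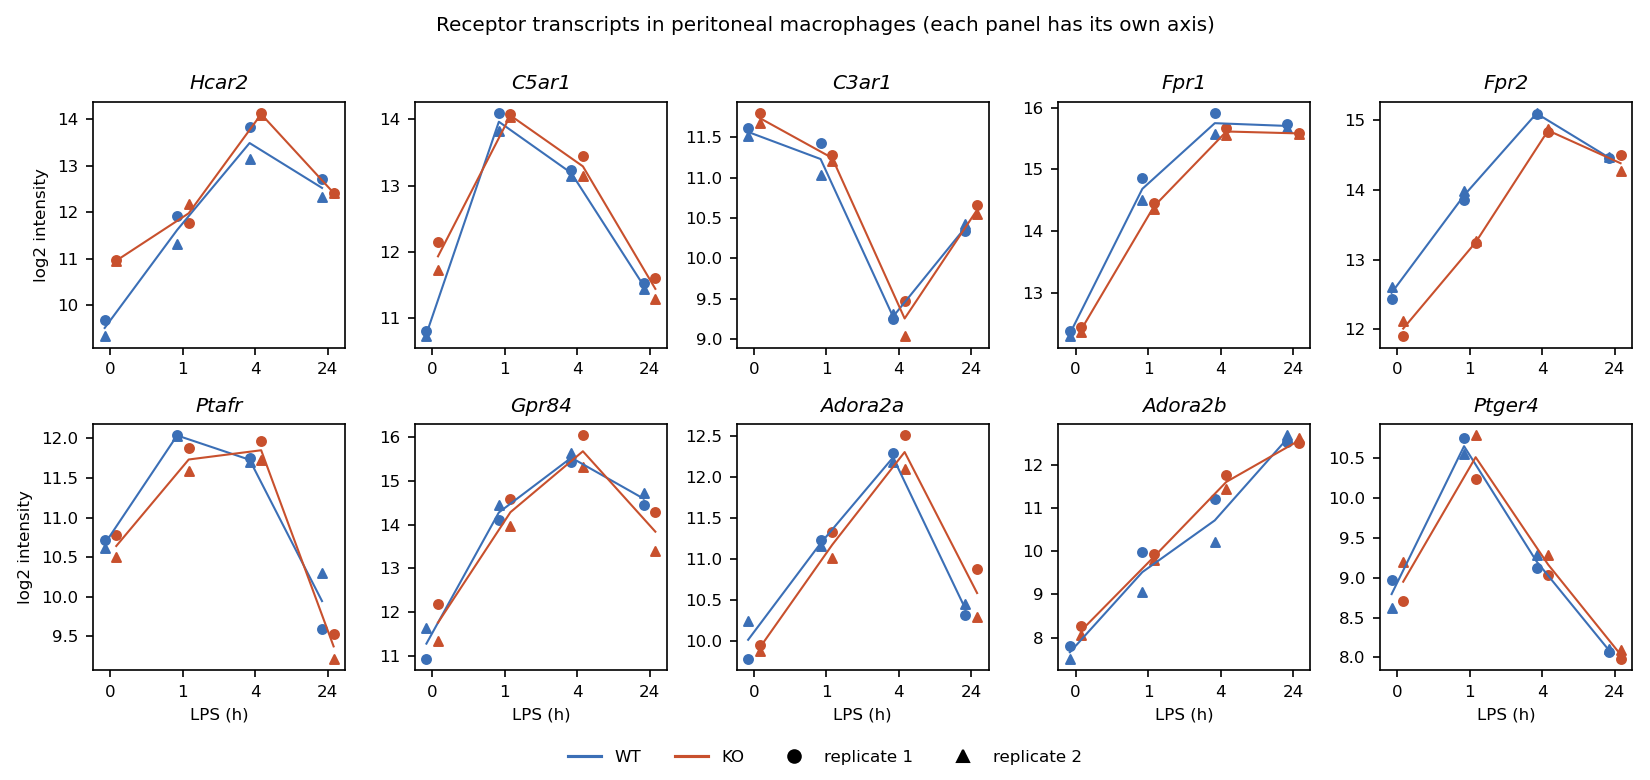
Normalized log2 intensity (y axis, each panel with its own range) of the 10 receptor transcripts against hours of LPS (x axis, evenly spaced), in WT (blue) and KO (red) cells, with a point per channel (circle, replicate 1, and triangle, replicate 2) and lines through the means of 2. C3ar1 alone lies below its unstimulated level at 4 h, Adora2b climbs to 24 h, and Hcar2 and C5ar1 start higher in KO than in WT cells.

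The complement receptors lay on opposite sides of their unstimulated levels at 4 h, C5ar1 above and C3ar1 below in both genotypes. C5ar1, the receptor of the anaphylatoxin C5a, was at 10.80 and 10.72 (log2 intensity, replicates 1 and 2) in unstimulated WT cells, 14.10 and 13.83 after 1 h, 13.23 and 13.15 after 4 h and 11.54 and 11.44 after 24 h. It thus peaked at 1 h and came most of the way back by 24 h, with no overlap between any neighbouring times. In KO cells C5ar1 was at 12.14 and 11.72 unstimulated, 14.08 and 14.03 after 1 h, 13.44 and 13.14 after 4 h and 11.60 and 11.28 after 24 h. The LPS groups of the 2 genotypes lay close together, and the unstimulated KO channels both lay above the unstimulated WT channels. C5ar1 rose 9.20-fold in WT cells at 1 h (3.20 ± 0.15 on the log2 scale, SE) and 4.36-fold in KO cells (2.13 ± 0.15). At 24 h its mean was 0.73 above unstimulated WT cells and below unstimulated KO cells by a difference of -0.49. These changes are given with no test because the unstimulated difference picked the gene. The 24 h value in KO cells ran from -0.70 to -0.24 over 18 alternative settings. It was -0.28 without the unstimulated array of replicate 1, -0.33 without the 24 h array of replicate 2, and -0.24 with loess alone, -0.38 with the software's processed signals and -0.41 with Aquantile scaling.

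C3ar1, the receptor of the anaphylatoxin C3a, was the member called lower at 4 h. In WT cells it was at 11.61 and 11.52 unstimulated, 11.43 and 11.03 after 1 h, 9.25 and 9.31 after 4 h and 10.34 and 10.43 after 24 h. KO cells held 11.80 and 11.67, then 11.28 and 11.20, 9.48 and 9.03, and 10.66 and 10.55. The lowest level in both genotypes was at 4 h, and the 24 h level lay between the 4 h and the unstimulated level in every channel. At 4 h C3ar1 was 4.88-fold lower in WT cells (-2.29 ± 0.15, adjusted p = 2.65e-08) and 5.59-fold lower in KO cells (-2.48 ± 0.15, adjusted p = 1.27e-08), and from 4 to 24 h it recovered by 1.11 in WT cells (adjusted p = 4.69e-05). Its change at 1 h was -0.34 in WT cells (adjusted p = 0.240) and -0.49 in KO cells (adjusted p = 0.0624, and 0.0300 with the replicate number as a block, under which 8.32% of all genes were called). It was also called with the software's processed signals (-0.50, adjusted p = 0.0360), with a stricter filter on dim probes (adjusted p = 0.0390) and without either 4 h array (adjusted p = 0.0340 for each). The sequence shown for C3ar1 is the one with an AP-1 match.

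The formyl peptide receptors rose and stayed high. Fpr1, which binds formylated peptides of bacteria and mitochondria, was at 12.39 and 12.30 in unstimulated WT cells, 14.87 and 14.50 after 1 h, 15.92 and 15.58 after 4 h and 15.74 and 15.67 after 24 h. In KO cells it was at 12.46 and 12.38, 14.45 and 14.35, 15.68 and 15.55, and 15.60 and 15.57. The 4 h and 24 h channels overlapped in both genotypes, and the difference between these times was -0.04 in WT cells (adjusted p = 0.869) and -0.03 in KO cells (adjusted p = 0.909), and 0.33 and 0.28, also not called, with loess alone. Fpr1 was 10.6-fold above unstimulated WT cells at 4 h (3.40 ± 0.13, adjusted p = 1.97e-10) and 10.3-fold above them at 24 h (3.36 ± 0.13, adjusted p = 4.09e-10).

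Fpr2, a receptor of formyl peptides, lipoxin A4 and serum amyloid A, was at 12.44 and 12.61 in unstimulated WT cells, 13.86 and 13.98 after 1 h, 15.08 and 15.10 after 4 h and 14.46 and 14.46 after 24 h. In KO cells it was at 11.90 and 12.12, 13.23 and 13.26, 14.83 and 14.87, and 14.49 and 14.27. Replicates lay close together, and both KO channels were below both WT channels at 0, 1 and 4 h but not at 24 h. Fpr2 was 5.93-fold higher at 4 h in WT cells (2.57 ± 0.11, adjusted p = 4.80e-10) and 7.14-fold higher in KO cells (2.84 ± 0.11, adjusted p = 2.03e-10). From 4 to 24 h it changed by -0.63 in WT cells (adjusted p = 0.000386) and by -0.47 in KO cells (adjusted p = 0.00370). With loess alone these 2 falls were -0.25 (adjusted p = 0.211) and -0.13 (adjusted p = 0.624), and without the 24 h array of replicate 2 the fall in KO cells was -0.35 (adjusted p = 0.0734). Of the neutrophil markers, which mark cells rich in both receptors, the list's summed log2 level was 12.1 to 12.5 in the channels of 0 and 1 h and 14.7 to 16.1 at 24 h, and 4 of the 9 stayed at background in every channel. In each genotype 3 of the 9 were called higher at 24 h, S100a8 (3.77 in WT cells), Mmp9 (2.19) and Camp (1.82), and Elane was lower (-0.87), with a list median of 0.16 in WT and -0.02 in KO cells, so the sum followed S100a8. The part of other cells in the receptors' rise was not tested.

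Ptafr, the receptor of platelet-activating factor, rose early and ended low. It was at 10.72 and 10.62 in unstimulated WT cells, 12.04 and 12.03 after 1 h, 11.75 and 11.70 after 4 h and 9.59 and 10.30 after 24 h, and at 10.78 and 10.50, 11.87 and 11.59, 11.97 and 11.73, and 9.53 and 9.22 in KO cells. The 24 h level was the lowest in both genotypes. Ptafr was 2.58-fold higher at 1 h in WT cells (1.37 ± 0.20, adjusted p = 0.000487) and 2.13-fold higher in KO cells (1.09 ± 0.20, adjusted p = 0.00346). At 24 h it was 1.65-fold lower in WT cells (-0.72 ± 0.20, adjusted p = 0.0125) and 2.40-fold lower in KO cells (-1.27 ± 0.20, adjusted p = 0.000208). The levels at 1 and 4 h did not differ past the threshold in WT (-0.31, adjusted p = 0.317) or KO cells (0.12, adjusted p = 0.750). Single arrays decided 2 of these calls. The 24 h fall in WT cells was -0.37 without the 24 h array of replicate 1 (adjusted p = 0.135) and -0.67 without the unstimulated array of replicate 1 (adjusted p = 0.0805). It was -0.60 with loess alone (adjusted p = 0.0695). The 1 h rise in KO cells was 0.95 without the unstimulated array of replicate 2 (adjusted p = 0.0563) and 0.95 without the 1 h array of replicate 1 (adjusted p = 0.0620).

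Both metabolite receptors peaked at 4 h. Hcar2, the receptor of the ketone body beta-hydroxybutyrate and of niacin, was at 9.69 and 9.33 in unstimulated WT cells, 11.92 and 11.32 after 1 h, 13.82 and 13.15 after 4 h and 12.71 and 12.33 after 24 h. In KO cells it was at 10.97 and 10.95 unstimulated, 11.78 and 12.18 after 1 h, 14.13 and 14.07 after 4 h and 12.41 and 12.41 after 24 h. The unstimulated channels of the 2 genotypes did not overlap, while those of 1 h and of 24 h did. At 4 h Hcar2 was 15.7-fold above unstimulated WT cells (3.97 ± 0.24) and 8.85-fold above unstimulated KO cells (3.15 ± 0.24). No test is given, since the gene was picked on these unstimulated channels. Its rise at 1 h in KO cells, 1.02, was 1.03 without the unstimulated array of replicate 1 and 1.01 without that of replicate 2. It was 0.82 without the 1 h array of replicate 2 and 0.86 with loess alone. Hcar2 lost its call at 1 h in KO cells in each of these settings. From 4 to 24 h it fell by 0.96 in WT cells (adjusted p = 0.00610). That fall was -0.63 without the 4 h array of replicate 1 (adjusted p = 0.110), -0.78 without the 24 h array of replicate 2 (adjusted p = 0.0915) and -0.64 with loess alone (adjusted p = 0.0849). The dimmer Hcar2 probe rose in both genotypes too, by 3.81 in WT and 3.57 in KO cells at 4 h.

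Gpr84, a receptor of medium-chain fatty acids, was at 10.93 and 11.63 in unstimulated WT cells, 14.11 and 14.45 after 1 h, 15.43 and 15.63 after 4 h and 14.46 and 14.73 after 24 h. In KO cells it was at 12.18 and 11.34, 14.60 and 13.98, 16.05 and 15.32, and 14.29 and 13.39. Replicate 1 was the higher KO channel and the lower WT channel at every time, so the Cy5 channel was the brighter one for both genotypes, and the genotypes overlapped at 0, 1 and 4 h. At 4 h Gpr84 was 19.1-fold higher in WT cells (4.26 ± 0.37, adjusted p = 5.05e-07) and 15.2-fold higher in KO cells (3.92 ± 0.37, adjusted p = 1.15e-06), the largest rise of the 10 members at that time in both genotypes. Its step from 1 to 4 h, 1.25 in WT cells (adjusted p = 0.0192), was 1.09 without the 1 h array of replicate 1 (adjusted p = 0.113) and 1.15 without the 4 h array of replicate 2 (adjusted p = 0.0882). In KO cells the step was 1.39 (adjusted p = 0.00953), 1.08 without the 1 h array of replicate 2 (adjusted p = 0.109) and 1.03 without the 4 h array of replicate 1 (adjusted p = 0.128). From 4 to 24 h it changed by -1.84 in KO cells (adjusted p = 0.00145) and by -0.94 in WT cells (adjusted p = 0.0764, and 0.0485 with the block, under which 30.9% of all genes were called). Over 17 alternative settings, the block among them, the change in WT cells ran from -1.07 to -0.57 and was called in 6.

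The receptors that raise cyclic AMP had unlike time courses. Adora2a, the high-affinity adenosine receptor of the pair, was at 9.79 and 10.25 in unstimulated WT cells, 11.23 and 11.16 after 1 h, 12.30 and 12.19 after 4 h and 10.32 and 10.46 after 24 h. In KO cells it was at 9.96 and 9.88, 11.33 and 11.02, 12.51 and 12.10, and 10.88 and 10.30. It peaked at 4 h and was near its starting level by 24 h. The rise at 4 h was 4.67-fold in WT (2.22 ± 0.20, adjusted p = 6.89e-07) and 5.22-fold in KO cells (2.39 ± 0.20, adjusted p = 3.51e-07). At 24 h the difference from unstimulated cells was 0.37 in WT cells (adjusted p = 0.203) and 0.67 in KO cells (adjusted p = 0.0210). The latter was 0.37 without the 24 h array of replicate 1 (adjusted p = 0.285), 0.70 without the unstimulated array of replicate 1 (adjusted p = 0.0509) and 0.63 without that of replicate 2 (adjusted p = 0.0771).

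Adora2b, the low-affinity adenosine receptor, kept rising. It was at 7.81 and 7.50 in unstimulated WT cells, 9.97 and 9.06 after 1 h, 11.21 and 10.22 after 4 h and 12.54 and 12.69 after 24 h, and at 8.26 and 8.07, 9.94 and 9.81, 11.78 and 11.45, and 12.52 and 12.62 in KO cells. Each time lay above the one before it in every channel of both genotypes. At 24 h Adora2b was 31.0-fold higher in WT cells (4.96 ± 0.29, adjusted p = 1.64e-08) and 21.1-fold higher in KO cells (4.40 ± 0.29, adjusted p = 5.50e-08), the largest rise of the 10 at that time. The step from 1 to 4 h in WT cells was 1.20 (adjusted p = 0.00505), 0.74 without the 1 h array of replicate 2 (adjusted p = 0.103) and 0.71 without the 4 h array of replicate 1 (adjusted p = 0.0910). The step from 4 to 24 h in KO cells was 0.96 (adjusted p = 0.0203), 0.79 without the 4 h array of replicate 2 (adjusted p = 0.0541), 1.01 without the 24 h array of replicate 1 (adjusted p = 0.0798) and 0.91 without that of replicate 2 (adjusted p = 0.120). A second, dimmer Adora2b probe was 4.39 higher at 24 h in WT cells and 3.87 higher in KO cells.

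Ptger4, the EP4 receptor of prostaglandin E2, had a pulse at 1 h. It was at 8.97 and 8.62 in unstimulated WT cells, 10.75 and 10.55 after 1 h, 9.13 and 9.28 after 4 h and 8.07 and 8.11 after 24 h, and at 8.71 and 9.19, 10.24 and 10.79, 9.04 and 9.29, and 7.98 and 8.09 in KO cells. The 1 h channels lay above all others and the 24 h channels below all others. Ptger4 was 3.62-fold higher at 1 h in WT cells (1.86 ± 0.20, adjusted p = 3.14e-05) and 2.95-fold higher in KO cells (1.56 ± 0.20, adjusted p = 0.000187). At 4 h the difference was 0.41 (adjusted p = 0.138) and 0.22 (adjusted p = 0.478), and -0.06 and -0.26 with loess alone. At 24 h Ptger4 was 1.63-fold lower in WT cells (-0.70 ± 0.20, adjusted p = 0.0136) and 1.88-fold lower in KO cells (-0.91 ± 0.20, adjusted p = 0.00256). The 24 h fall in WT cells was -0.53 without the unstimulated array of replicate 1 (adjusted p = 0.0872), -0.69 without the 24 h array of replicate 1 (adjusted p = 0.0850) and -0.72 without that of replicate 2 (adjusted p = 0.0680). With loess alone the step from 4 to 24 h was -0.65 in WT and -0.68 in KO cells, against -1.11 and -1.13 with quantile scaling.

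**Figure D2:**
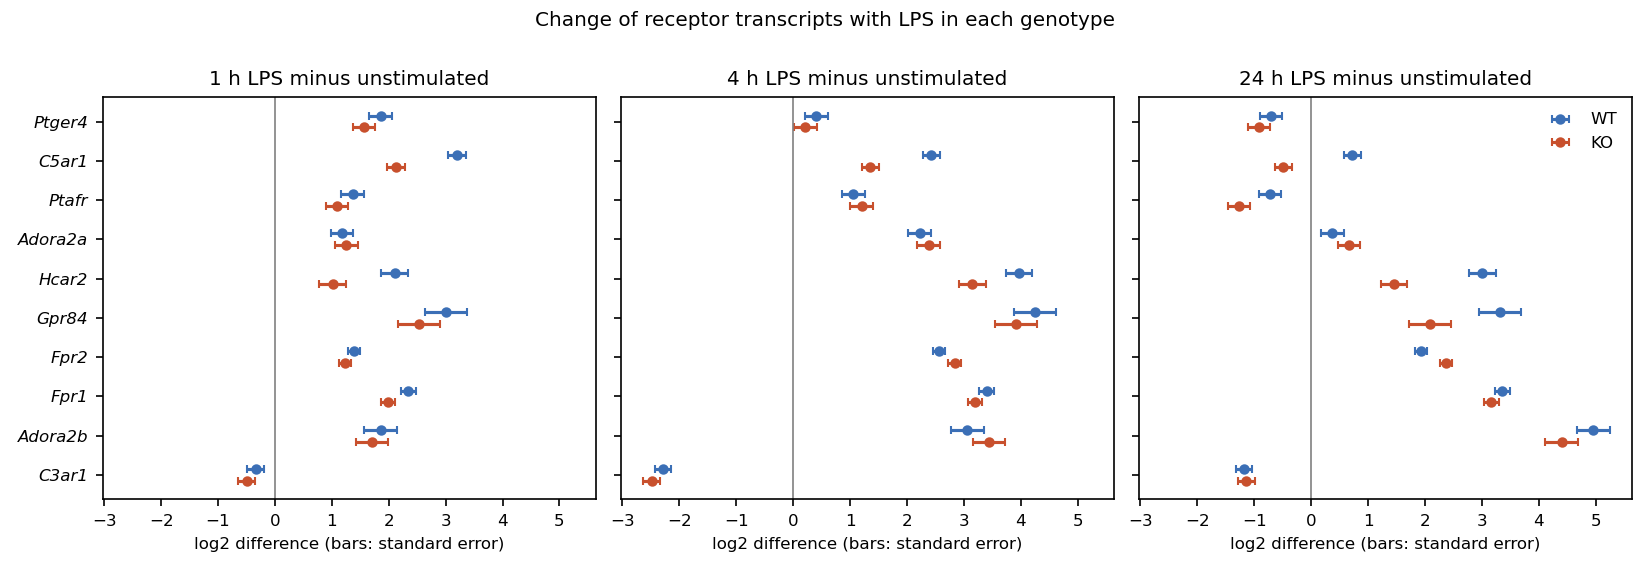
Change of the 10 receptor transcripts from unstimulated cells after 1, 4 and 24 h of LPS (x axis, log2 difference of the separate-channel fit) in WT (blue) and KO (red) cells, with bars of 1 standard error. Adora2b reaches 4.96 in WT cells at 24 h, C3ar1 falls to -2.29 at 4 h, and the C5ar1 and Hcar2 points of KO cells lie left of those of WT cells at all 3 times.

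Taking neighbouring LPS times, a comparison added after the levels had been seen, 6 members rose and 3 fell from 1 to 4 h in WT cells and likewise in KO cells (background 29.6% and 31.8% of all genes called), with Ptafr the one not called and C5ar1, C3ar1 and Ptger4 the ones that fell. From 4 to 24 h, 2 rose and 6 fell in WT cells and 2 rose and 7 fell in KO cells (background 29.7% and 30.7%), with 1 rising in KO cells, C3ar1, without the 4 h array of replicate 2 or without either 24 h array. C3ar1 and Adora2b were the members that rose in the later interval, and C5ar1, Fpr2, Ptafr, Hcar2, Adora2a and Ptger4 were those that fell in both genotypes. The order of the times thus differed between members: 1 h was highest for C5ar1 and Ptger4, 4 h for Hcar2, Gpr84, Fpr2 and Adora2a, and 24 h for Adora2b.

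Cell type markers moved with LPS as well. Of the 5 macrophage markers, 4 were lower at 4 h and at 24 h in each genotype, and their summed log2 level was 18.56 to 19.14 in unstimulated channels and 16.77 to 17.41 at 24 h. The summed log2 level of the large peritoneal macrophage markers Gata6, Icam2, Timd4, Alox15, Selp and Fn1 was 17.1 to 17.4 in unstimulated channels and 13.68 to 14.02 at 24 h, and 5 of the 6 were lower at 24 h in WT and in KO cells. That of the mast cell markers was 12.99 to 13.86 in unstimulated channels and 10.8 to 11.9 at 24 h. The dendritic cell markers went from 11.65 to 12.70 in unstimulated channels to 9.42 to 9.52 at 24 h, and the mesothelial or fibroblast markers from 9.57 to 9.85 to 10.89 to 11.33. Each of these 2 sums followed 1 gene. Of the 4 dendritic cell markers, Cd209a was lower and above background in 0 channels at 24 h, while Flt3 was higher (1.56 in WT cells) and the other 2 were not called. Of the 7 mesothelial or fibroblast markers, Dcn was higher (2.84 in WT cells) and 6 were not called. Other lists had moved by 4 h. The summed T or NK cell markers were at 13.44 to 14.26 in unstimulated channels and 12.56 to 13.23 at 4 h, where Cd2 was lower in both genotypes (-1.77 in WT and -2.20 in KO cells) and Cd3g in KO cells (-1.19). Of the B cell markers, Cd79b was lower at 4 h in WT (-3.04) and KO cells (-3.52) and Ms4a1 in KO cells (-1.01, and -0.45 in WT cells, not called). The 3 small peritoneal macrophage or monocyte markers summed to 10.85 to 11.34 in unstimulated channels, 12.27 to 12.81 at 1 h and 12.89 to 13.55 at 4 h. That sum followed Irf4, 1.55 higher in WT cells at 1 h and 2.44 at 4 h, while Ccr2 was lower at 4 h (-0.45) and Cd226 was not called. The part of these shifts in the members' rises at 1 and 4 h and in the 24 h levels of Ptafr, Ptger4, Adora2a and C5ar1 was not tested.

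Between the genotypes, the data showed fewer and smaller differences. In unstimulated cells, Hcar2 and C5ar1 were higher in KO cells on both arrays. Fpr2 was lower in KO cells in unstimulated cells and at 1 h. Adora2b was higher in KO cells at 4 h. No member passed the threshold at any time point in the limma fit of the log2 ratio within each array, which shares its spread over all 8 arrays. In that fit the percentage of all 36947 genes and transcripts called was 0.00 in unstimulated cells, 0.00 at 1 h, 0.0135 at 4 h and 0.0244 at 24 h. At an unadjusted p of 0.05, limma had 2 of the 8 members tested in unstimulated cells, 2 of 10 at 1 h, 3 of 10 at 4 h and 1 of 10 at 24 h, where 5.78, 5.48, 4.30 and 3.43 percent of all genes were under it. The t-test of the methods, run on the separate channels, called 0 members after Benjamini-Hochberg adjustment at each of the 4 time points (0.00 percent of all genes at each), with 0 of the 8 in unstimulated cells, then 1, 1 and 0 of 10, under an unadjusted 0.05, where 4.58, 4.75, 3.05 and 4.10 percent of all genes were. Replicate differences were correlated between times, and replicate number and dye orientation coincide. With the number as a block, the fit called 1 of the 8 members tested in unstimulated cells and 1 of 10 at 1 h (Fpr2, lower in KO cells). It called 2 at 4 h (Adora2b and Hcar2, higher) and 1 at 24 h (Gpr84, lower). The block takes the replicate difference shared over the times out of the spread, so its p-values do not measure that difference. Under that block 1.06, 0.574, 0.566 and 0.585 percent of all genes were called.

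**Figure D3:**
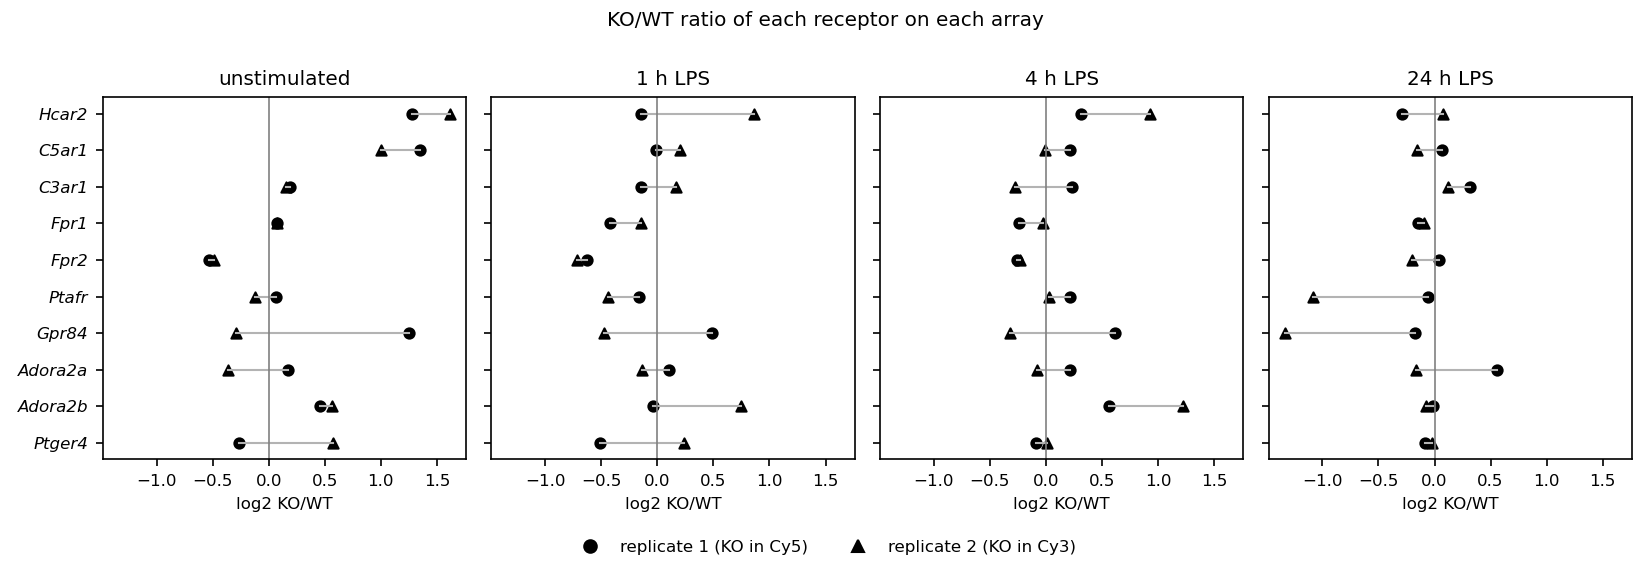
KO/WT log2 ratio of the 10 receptor transcripts (x axis) on each of the 8 arrays, in unstimulated cells and after 1, 4 and 24 h of LPS, with a circle for replicate 1, a triangle for replicate 2 and a line joining them. In unstimulated cells Hcar2 (1.28 and 1.61) and C5ar1 (1.34 and 1.00) stand to the right of 0, Fpr2 is left of 0 at 0, 1 and 4 h, and the Gpr84 replicates lie on opposite sides of 0 until 24 h.

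The KO/WT log2 ratio of Hcar2 in unstimulated cells was 1.28 and 1.61 on the 2 arrays, a mean of 1.45 or 2.72-fold, and that of C5ar1 was 1.34 and 1.00, a mean of 1.17 or 2.25-fold. Both are description, since the study picked these genes for that difference. The dimmer Hcar2 probe had a resting ratio of 0.39 and 0.92. With LPS the ratio of C5ar1 was -0.01 and 0.20 after 1 h, 0.21 and -0.01 after 4 h and 0.06 and -0.15 after 24 h, so the arrays differed in sign at each of these times. The ratio of Hcar2 was -0.14 and 0.86 after 1 h, 0.32 and 0.93 after 4 h and -0.29 and 0.08 after 24 h. At 4 h its mean of 0.62 had an adjusted p of 1.00, and 0.0438 with the block.

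The change with LPS was accordingly smaller in KO than in WT cells for these 2 genes, which start from the resting difference that picked them. The KO response minus the WT response, on the log2 scale, was -1.09, -0.82 and -1.55 for Hcar2 at 1, 4 and 24 h, and -1.08, -1.07 and -1.22 for C5ar1. The dimmer Hcar2 probe had smaller values, -0.35, -0.24 and -0.85. No test is given. Among the 8 other members, 0 had a response difference past the threshold at any of the 3 times (0.00 percent of all genes at each), with 1, 0 and 1 under an unadjusted p of 0.05, as were 1.39, 2.90 and 3.33 percent of all genes. The members were Fpr1 at 1 h (-0.36) and Fpr2 at 24 h (0.43). With the replicate number as a block, Gpr84 at 24 h was called (-1.43 and -1.04 in the replicates, mean -1.23, adjusted p = 0.0112), where 0.211 percent of all genes were called.

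Fpr2 had KO/WT log2 ratios of -0.54 and -0.49 in unstimulated cells, -0.63 and -0.72 after 1 h, -0.26 and -0.23 after 4 h and 0.04 and -0.20 after 24 h. It was below 0 on 7 of 8 arrays. The mean was -0.51 in unstimulated cells (adjusted p = 0.189, and 0.0232 with the block) and -0.67 at 1 h (adjusted p = 0.256, and 0.0146 with the block). Averaged over the 4 time points it was -0.38 ± 0.05, 1.30-fold lower in KO cells (adjusted p = 0.0210). This fit takes the arrays of all 4 time points as independent, while replicate differences in the ratio correlated between times by 0.475 to 0.679. If samples were shared over the times, the SE and p-values of such averages can be too small, for this and other genes. Fpr2 was the one member of the 8 tested that was called in this comparison, where 0.566 percent of all genes were. Without a single array the average ran from -0.41 to -0.35, and it was called without the 24 h array of replicate 1 (adjusted p = 0.0294) but not without any other array, with an adjusted p from 0.0539 without the 1 h array of replicate 1 to 0.107 without the unstimulated array of replicate 1. Of the 5 macrophage markers, Csf1r (-0.40, adjusted p = 0.0182) and Lyz2, at the Cre locus, were lower in KO cells in the same comparison, while Adgre1 (0.00), Itgam (0.11) and Mertk (-0.24) were not called. Of the 6 large peritoneal macrophage markers, 1 was called in that comparison, higher in KO cells. The summed macrophage markers were at 18.56 to 18.62 in unstimulated KO channels and 18.89 to 19.14 in WT channels, a sum led by Csf1r and Lyz2. Their part in the Fpr2 difference was not tested.

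Adora2b had KO/WT log2 ratios of 0.45 and 0.57 in unstimulated cells, -0.04 and 0.75 after 1 h, 0.56 and 1.22 after 4 h and -0.02 and -0.07 after 24 h. At 4 h the mean was 0.89 ± 0.19 (adjusted p = 0.452, and 0.0176 with the block), and the second probe had 0.49 and 1.05. The average over the 4 time points was 0.43 (adjusted p = 0.114, and 0.00474 with the block). Under the block 5.99 percent of all genes were called in the average. The limit given with the Fpr2 average holds for the first p-value, and the block leaves the shared replicate difference out of the second. The second probe had a mean ratio of 0.26 in unstimulated cells, 0.25 at 1 h, 0.77 at 4 h and -0.26 at 24 h, an average of 0.26 against 0.43 for the brighter probe. The mast cell markers had a median KO/WT log2 ratio of 0.39, 0.33, 0.47 and 0.66 at 0, 1, 4 and 24 h, with 0 of the 6 called at any time or in the average, and 5 called in the average with the block. Mcpt4 had a mean ratio of -0.07 in unstimulated cells and -0.09 at 1 h. The replicates differed. The summed log2 level in unstimulated cells was 13.28 in KO and 13.48 in WT cells in replicate 1, and 13.86 and 12.99 in replicate 2. At 4 h it was 13.44 in KO and 13.66 in WT cells in replicate 1, and 14.48 and 13.37 in replicate 2, the array on which the ratios of Adora2b and Hcar2 were the larger. With the block, 4 of 6 large peritoneal macrophage, 3 of 5 macrophage and 2 of 7 T or NK cell markers were also called in the average. The part of these markers in the Adora2b and Hcar2 differences was not tested.

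Gpr84 ratios split by replicate, at 1.25 and -0.29 in unstimulated cells, 0.48 and -0.47 after 1 h, 0.61 and -0.32 after 4 h and -0.18 and -1.33 after 24 h. Replicate 1, with KO in Cy5, was the higher at every time, which cannot be told apart from the dye. The mean at 24 h was -0.75 (adjusted p = 1.00, and 0.0118 with the block). Ptafr at 24 h had -0.06 and -1.08, a mean of -0.57 (adjusted p = 1.00), so the arrays shared a sign but differed widely. For C3ar1, Fpr1, Adora2a and Ptger4 the mean ratio lay between -0.28 and 0.22 at every time point and was not called with or without the block. A p that misses the threshold does not show that the genotypes were alike in these genes.

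Around the receptors, 4 lists of pathway genes were counted in WT cells, with the background percentages already given for LPS in WT cells. Other receptors of the same ligand classes moved both ways, with 4 of 38 higher and 4 lower at 1 h, 10 higher and 13 lower at 4 h, and 6 higher and 14 lower at 24 h. Their median change was 0.05, -0.04 and -0.14, beside the members' 1.86, 2.50 and 1.33. Gpr132, a receptor of oxidized lipids, was 1.71 higher at 1 h, and the formyl peptide receptor relative Fpr-rs3 was 1.51 higher at 4 h. Adora3, an adenosine receptor that couples to Gi, was 3.38 higher at 24 h (adjusted p = 1.70e-06). Lpar6 and S1pr1, receptors of lysophosphatidic acid and sphingosine 1-phosphate, were lower at 4 h (-2.98 and -2.59), as was the UDP receptor P2ry6 (-2.25). Lpar1 and Gpr18 were 1.65 and 1.48 higher at 4 h. At 1 h S1pr2 (-1.82), Lpar6 (-1.65) and the prostacyclin receptor Ptgir (-1.32) were lower and P2ry13 (0.88) and P2ry2 (0.57) were higher, and at 24 h the UDP-glucose receptor P2ry14 was lower (-2.21).

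Genes that make or break down the ligands moved both ways, with 4 of 34 higher and 1 lower at 1 h, 12 higher and 13 lower at 4 h, and 12 higher and 12 lower at 24 h, and medians of -0.12, -0.16 and -0.18. Ptgs2, the inducible cyclooxygenase that feeds prostaglandin E2 synthesis, was 6.88 higher at 1 h, 9.23 at 4 h and 8.17 at 24 h, while the constitutive Ptgs1 was 3.04 lower at 4 h (-3.04). Pla2g4a, the phospholipase that frees arachidonic acid, was 2.49 higher at 4 h and 2.67 at 24 h. Of the adenosine genes, Nt5e, the ectoenzyme that makes adenosine from AMP, was lower at 4 h (-2.32), the nucleoside transporter Slc29a2 was 1.70 higher at 4 h, and the adenosine deaminase Ada was 2.01 higher at 24 h. Pafah1b3 was lower at 4 h (-2.62), and Camp (0.67) and Pafah1b1 (0.67) were higher and Ptges2 lower (-0.45) at 1 h. The complement genes C1qa (-3.39), C1qb (-4.00) and C1qc (-4.95) were lower at 24 h.

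Of 27 G protein and desensitization genes, 1 was higher and 5 lower at 1 h, and 5 were higher and 15 lower at 4 h and again at 24 h, with medians of -0.15, -0.62 and -0.41. Rgs2, a regulator of G protein signalling that acts on Gq, was lower at all 3 times (-2.77, -4.71 and -4.69), and Rgs1 was 1.69 higher at 1 h. Arrb1, beta-arrestin 1, which uncouples and internalizes receptors, was lower at 4 h (-3.80) and 24 h (-2.48). Rgs10 was lower at 1 h (-0.57) and 4 h (-2.67), Rgs18 was lower at 24 h (-2.60) and Gna15 was lower at 1 h (-0.59). Gnb4 was 2.67 higher at 4 h, Gng12 was 0.89 and 1.42 higher at 4 and 24 h, Rgs14 was 0.59 and 0.93 higher, and Rgs16 was 0.94 higher at 24 h.

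Of 32 effector genes, 5 were higher and 0 lower at 1 h, and 7 were higher and 11 lower at 4 h and again at 24 h, with medians of 0.07, 0.02 and -0.05. In KO cells at 4 h, 9 of the other receptors were higher and 14 lower, 13 and 11 of the ligand genes, 5 and 16 of the G protein genes and 8 and 11 of the effectors. Pde4b, a phosphodiesterase that degrades cyclic AMP, was 2.75, 2.88 and 1.49 higher at the 3 times, and the cyclic AMP-responsive factor Crem was 0.92, 1.87 and 1.36 higher. The adenylyl cyclases Adcy9 (-2.44) and Adcy4 (-1.59) and the protein kinase A subunit Prkacb (-1.66) were lower at 4 h. Pik3r5, a PI3K gamma regulatory subunit, was 0.77 higher at 1 h and 1.30 at 4 h, and the catalytic subunit Pik3cg was 1.21 higher at 24 h. At 24 h Adcy4 (-2.28), Adcy9 (-1.63) and Plcb1 (-1.56) were lower. Between the genotypes, 2 of the 131 genes of the 4 lists were called in the average over the 4 time points (0.566 percent of all genes) and 0 at any single time point. Rgs1 was higher in KO cells by 0.48 (adjusted p = 0.0231) and Crem by 0.40 (adjusted p = 0.0456). The limit given with the Fpr2 average holds for both genes. With the replicate number as a block the 131 genes had 23 calls in the average, 15 higher and 8 lower (5.99 percent of all genes), and 4, 1, 4 and 2 at 0, 1, 4 and 24 h.

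**Figure D4:**
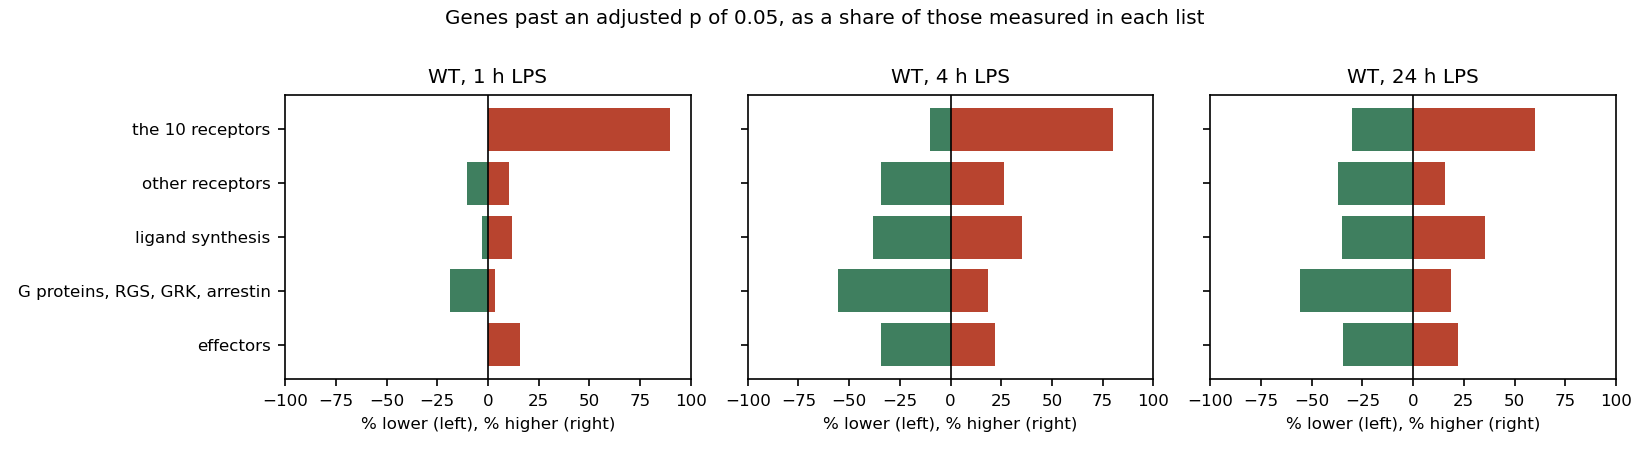
Share of the 10 receptors and of the 4 pathway lists past an adjusted p of 0.05 in WT cells after 1, 4 and 24 h of LPS (x axis, percent of the genes measured in each list), with lower genes to the left of 0 and higher genes to the right. The 24 h bar of the receptors includes C5ar1. At 4 h, 8 of the 10 receptors are higher and 15 of the 27 G protein and desensitization genes are lower.

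The genes whose group means tracked each member most closely over the 8 groups of genotype and time were sought among 9525 named genes, as a description with no p, since all groups share the time course and come from the same arrays. C3ar1 was most like Pde4a (Pearson r = 0.999), Acly and Evl. Hcar2 was most like Srgn (0.990), Parg and Ube2v2, and Gpr84 most like Srp54c (0.992), Ier3 and Rgcc. C5ar1 was most like Zfp131 (0.983), Ifrd1 and Plk2, and Ptger4 most like Foxn2 (0.996), Jund and Apbb3. Fpr1 was most like Isg15 (0.993), Jmjd6 and Filip1l, and Fpr2 most like Ciapin1 (0.985), Csl and Cd38. Ptafr was most like Msx2 (0.993), Hspb1 and Fbxo30. Adora2a was most like Birc2 (0.996), Ulk3 and Abhd12b, and Adora2b most like Ahr (0.991), Atg4d and Ube2s. Over the same groups, Fpr1 and Fpr2 had a correlation of 0.961 with each other and C3ar1 one of -0.899 with Hcar2.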

How the data were processed

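Scanner files of 8 Agilent 2-colour arrays were analysed, each with KO and WT RNA of 1 time point. The authors' Agilent Feature Extraction (10.7.3) wrote the deposited spot intensity values of both dyes, not yet normalized. The deposited value table holds the authors' log2 Cy5/Cy3 ratios after loess and quantile normalization (array medians 0.0025 to 0.0095), whose centring was not stated, and served as an alternative. Median foreground and background intensity was corrected by normexp (offset 50), loess-normalized within and quantile-normalized between arrays with limma 3.58.1 in R 4.3.3 (statmod 1.5.0). Spots of a probe were averaged, the brightest probe represented a gene, and a floor of 6 on the mean log2 intensity set which were tested. KO and WT were compared as ratios within arrays (lmFit, 1 coefficient per time, eBayes). LPS effects came from separate channels (lmscFit, within-spot correlation 0.116 over 5000 genes). Benjamini-Hochberg adjustment ran over 36947 and 36927 genes and transcripts. Time points came from sample titles, since a growth label gave 4 h for every sample. Replicate differences correlated between times by 0.475 to 0.679 for KO/WT ratios, 0.339 to 0.565 for WT and 0.214 to 0.336 for KO channels. The labels name no shared mouse or day, and a dye effect shared over the times cannot be told apart from a pairing of samples. All arrays lay on 1 slide with 1 scan time. The number of arrays limits the precision. On simulated data for KO versus WT at 4 h (36927 genes), 84% of log2 changes of 1 and 99% of changes of 2, 100 genes each, were recovered with 11 false calls, and for LPS at 4 h in WT cells 89% and 99% with 10. The simulated noise was independent between arrays and channels, unlike the data, so these shares cannot be carried over to the data. The measured Adora2b ratio of 0.89 at 4 h was not called. Members, pathway lists and motifs were chosen with earlier results of these data known. All members, Furin and Lyz2 are named, as are up to 3 list genes with the largest called rise and fall at each WT LPS time, list genes called between genotypes, and the 3 genes most correlated with each member.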

Additional observations from a re-analysis of the deposited data

How the results depend on the processing

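Other background corrections, scalings, filters and probe summaries reversed no call of a member. Of values that were not called, loess alone turned the sign of the 4 h change of Ptger4 in both genotypes, the step of Fpr1 from 4 to 24 h in both and the step of Ptafr from 1 to 4 h in KO cells, and other scalings that of the Gpr84 ratio at 1 h (0.01, from -0.02 to -0.01). With the replicate number as a block, the members called between genotypes numbered 1 in unstimulated cells, 1 at 1 h, 2 at 4 h, 1 at 24 h and 2 in the average over times, and the response difference at 24 h had 1, against 0 for each without it except 1 for the average. The block moved no count of LPS calls by over 1.5 times and changed no other call of a member than those given above with it, Hcar2 and C5ar1 being left out, with and without the block, of the comparisons in unstimulated cells, in the average and of the responses, where no test is given for them. Without a single array, the members called in the average over times numbered 0 to 1, the 0 arising without any array other than the 24 h array of replicate 1. The t-test of the methods, with Benjamini-Hochberg adjustment, called 0, 4 and 0 members with LPS in WT cells at 1, 4 and 24 h (0.00, 5.00 and 0.0460 percent of all genes) and 0, 2 and 3 in KO cells (0.00812, 2.11 and 1.71 percent). Under an unadjusted p of 0.05 there were 8, 9 and 7 members in WT cells (13.1, 31.1 and 27.9 percent of all genes) and 9, 9 and 6 in KO cells (13.7, 28.4 and 27.1 percent). All other counts of members called in either direction together stayed within 1.5 times the main count. By direction, the members lower in WT cells at 24 h went from 3 to 1 without the unstimulated or the 24 h array of replicate 1, those higher from 4 to 24 h in KO cells from 2 to 1 without the 4 h array of replicate 2 or either 24 h array, and those lower in KO cells at 1 h from 0 to 1 in the settings named for C3ar1. With 2 arrays per time point, the calls for Adora2b between genotypes depend on the replicate block, and the cause was not tested. The 2 arrays of a time hold opposite dyes, so a dye effect shared by the arrays cancels in their mean ratio. Probes report relative levels within a gene only.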
